A study of Mus musculus with 18 samples.

Results

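CD8 T cells were compared with Th2 cells in the presence of actinomycin D, in cells left resting and in cells stimulated with PMA and ionomycin, to see which transcripts still set the lineages apart when RNA synthesis was blocked. The comparison used 4 of the 18 samples of the series: the CD8 resting and CD8 stimulated libraries and the Th2 resting and Th2 stimulated libraries, all given actinomycin D, which form 2 pairs matched for state. Of 43432 genes in the table, 21869 had a value above 0 in these libraries, and the 10875 with a mean of at least 50 over the 4 were tested. Amigo2 (mean 49.99) and Adam22 (49.89) lay just under that minimum, Gm10501 (50.07) and Lpar5 (50.15) just over it. A gene can pass this filter through the lineage in which it is abundant, so the shares given here are shares of tested genes.

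All cells came from C57BL/6 mice, 3 mice pooled per preparation, and were cultured for 5 days with anti-CD3 and anti-CD28 bound to the plate (per the methods of the study, 3 days on coated dishes and then on uncoated ones). The CD8 T cells were taken by negative bead selection and grown with IL-12 and IL-2. The Th2 cells started as CD4 T cells taken by positive selection and were grown with IL-4, an antibody to interferon gamma, and IL-2. For the last 4 h both kinds were kept in fresh medium, either alone (resting) or containing PMA and ionomycin, which imitate signalling from the T cell receptor (stimulated). All libraries are from cells labelled as irradiated with ultraviolet light (8000 mJ at 254 nm). The methods describe a Trizol LS lysis for the drug course, and whether it was used for these libraries is not given, so the drug and the RNA preparation cannot be told apart in comparisons of treated with untreated cells. The lineages differed in selection and in cytokine milieu as well as in cell type, and these cannot be told apart. Actinomycin D, which stops RNA polymerases from copying DNA, was given after the stimulus according to the methods, which describe a course of several hours at 1 dose and say that cells treated in this way were also sequenced. Which time point these libraries are, and the course for resting cells, is not given in the sources used here. The 4 untreated libraries of the same cell types and states served to ask which differences were already there without the drug. Each condition had 1 library, so the resting and stimulated pairs stand in for replicates, and a p-value here measures only the spread between these libraries.

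CD8 T cells kill infected or transformed cells through granules of perforin and granzymes and make interferon gamma. Their fate is set by the transcription factors Runx3, T-bet (Tbx21) and Eomes, while ThPOK (Zbtb7b) and Gata3 direct the CD4 and Th2 fates. Th2 cells secrete IL-4, IL-5 and IL-13, the cytokines of allergy and of the defence against worms. Many cytokine mRNAs carry AU-rich elements, short stretches built on AUUUA in the 3′ untranslated region, which bind proteins that promote or delay decay of the message.

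Values are reads per gene divided by 1 size factor per library (called normalised reads here), with 25847119 to 28368770 gene reads per library in the 4 libraries given the drug. They state a gene's level relative to the other RNA of that library, so a value can be higher with the drug than without it, and in bulk samples fewer cells of a type and less RNA per cell cannot be told apart. Differences are log2(value + 1) in CD8 minus Th2, averaged over both pairs. The 4 libraries leave 1 residual degree of freedom, and limma then took the spread of each gene from the trend across genes alone. Calls (Benjamini-Hochberg adjusted p under 0.05) and counts come from that fit, its individual p-values are not printed, and the standard errors (SE) and adjusted p-values beside genes come from a limma model of all 8 RNA-seq libraries with 2 residual degrees of freedom. Ribosomal protein genes held 2.95 to 3.87% of reads and mitochondrial RNAs 1.53 to 2.12% in the libraries with actinomycin D. Across genes, the resting and stimulated libraries of a lineage correlated at 0.99 (CD8) and 0.983 (Th2), against 0.878 and 0.876 between lineages within a state.

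The labelled cell types were checked against their coreceptors. Cd8a, which encodes the CD8 alpha chain, had 15750 and 15380 normalised reads in resting and stimulated CD8 cells, compared with 2401 and 2164 in Th2 cells (log2 difference 2.77, SE 0.11, limma adjusted p = 4.11e-05). Cd8b1, its partner chain, had 9591 and 8687 in CD8 cells and 2361 and 1762 in Th2 cells (2.16, SE 0.11, limma adjusted p = 0.000119). Cd4 had 30.5 and 33.8 in CD8 cells, compared with 39570 and 37160 in Th2 cells (-10.18, SE 0.71, limma adjusted p = 0.00032). The groups did not overlap for any of these genes, and the Th2 libraries carried Cd8a RNA well above zero, also without the drug (1331 and 1410).

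The 5 defining transcription factors followed the labels with the drug present, while other factors of the same lists (Id2, Zeb2, Ikzf2 and Rora, described with their lists) went against theirs. Gata3, the master regulator of Th2 cells, had 22.6 and 29.8 normalised reads in CD8 cells and 2713 and 2280 in Th2 cells (log2 difference -6.53, SE 0.47, limma adjusted p = 0.00036). Tbx21 had 436.0 and 706.3 in CD8 cells and 73.6 and 131.3 in Th2 cells (2.49, SE 0.41, limma adjusted p = 0.00741). Runx3, which silences Cd4 in CD8 cells, had 3645 and 3356 in CD8 cells and 1378 and 1393 in Th2 cells (1.34, SE 0.13, limma adjusted p = 0.00103). Neither group overlapped the other for these 3 factors. The factors with smaller differences were Zbtb7b, at 880.0 and 832.5 in CD8 cells, compared with 1555 and 1320 in Th2 cells (-0.74, SE 0.21, limma adjusted p = 0.0423), and Eomes, at 111.2 and 141.1 in CD8 cells, compared with 68.1 and 70.4 in Th2 cells (0.85, SE 0.23, limma adjusted p = 0.0372). With any 1 of the 4 libraries left out, the model of the remaining 7 libraries gave limma adjusted p-values of 0.0572 to 0.068 for Runx3, 0.152 to 0.16 for Tbx21, 0.283 to 0.345 for Zbtb7b and 0.228 to 0.37 for Eomes, with the direction kept each time, and Gata3 still passed. Leaving out 1 of the 4 libraries gives the difference of the pair that remains, so the kept direction adds little. Eomes also missed the threshold with DESeq2 (log2 difference 0.86, adjusted p = 0.134).

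**Figure D1:**
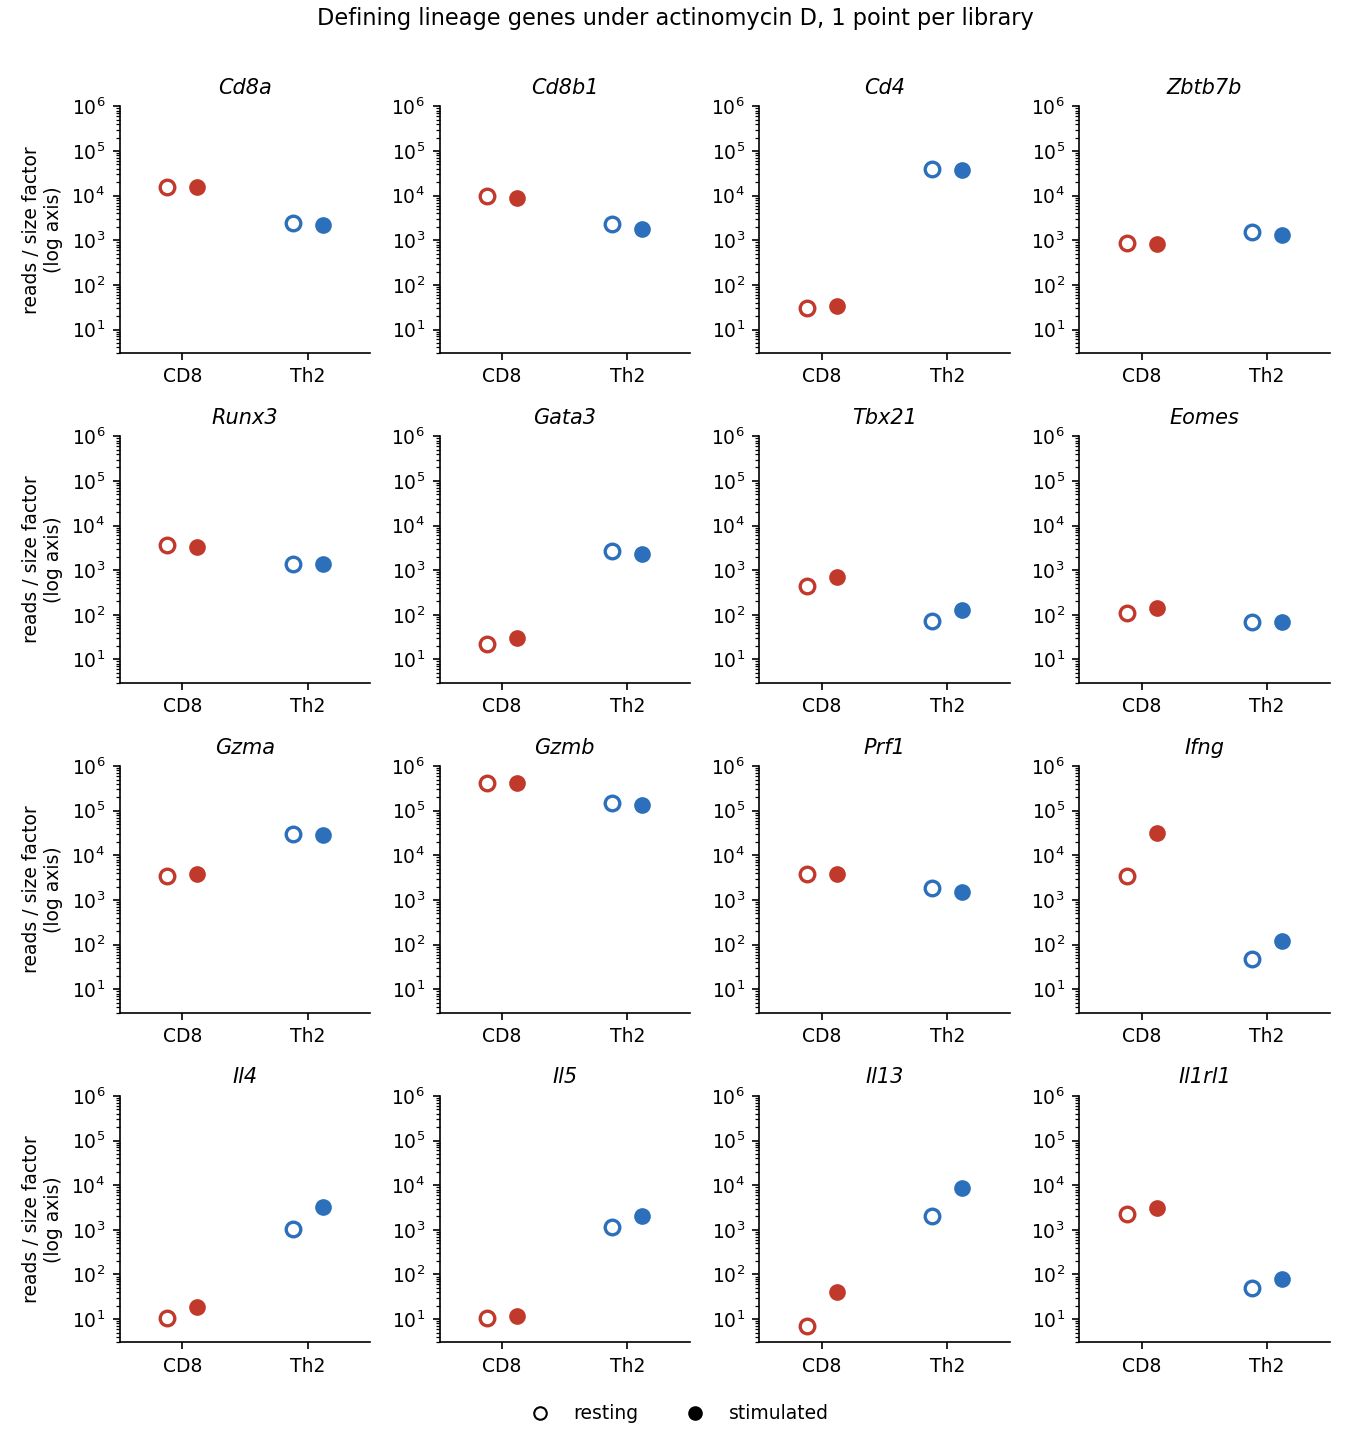
Normalised reads (reads divided by the size factor, log axis) of 16 defining genes in the 4 libraries given actinomycin D, CD8 left and Th2 right, with open circles for resting and filled circles for stimulated cells and 1 point per library. Cd4, Gata3, Il4, Il5 and Il13 lie far higher in Th2 cells, Ifng and Il1rl1 far higher in CD8 cells, and Gzma, a granzyme, is higher in Th2 cells (30400 and 28420) than in CD8 cells (3416 and 3908).

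Over all tested genes, 6081 (55.9%) were called, 3085 higher in CD8 cells (28.4%) and 2996 lower (27.5%). The model of 8 libraries called 3520 (32.4%), of which 1726 were higher (15.9%) and 1794 lower (16.5%), and models without 1 of the 4 libraries called 336 to 409. Called differences of at least 2-fold numbered 593 higher (5.45%) and 839 lower (7.71%), and all 1432 had the same direction in both pairs, which the choice of large called differences nearly fixes. Over all tested genes 9096 (83.6%) did. At 16-fold or more the split was 26 higher and 149 lower. The median difference over all genes was 0.012 on the log2 scale. Scaling to ribosomal protein genes moved it to 0.108 and the share of called genes that were higher in CD8 cells to 60.9%, against 50.7% with the deposited scaling.

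**Figure D2:**
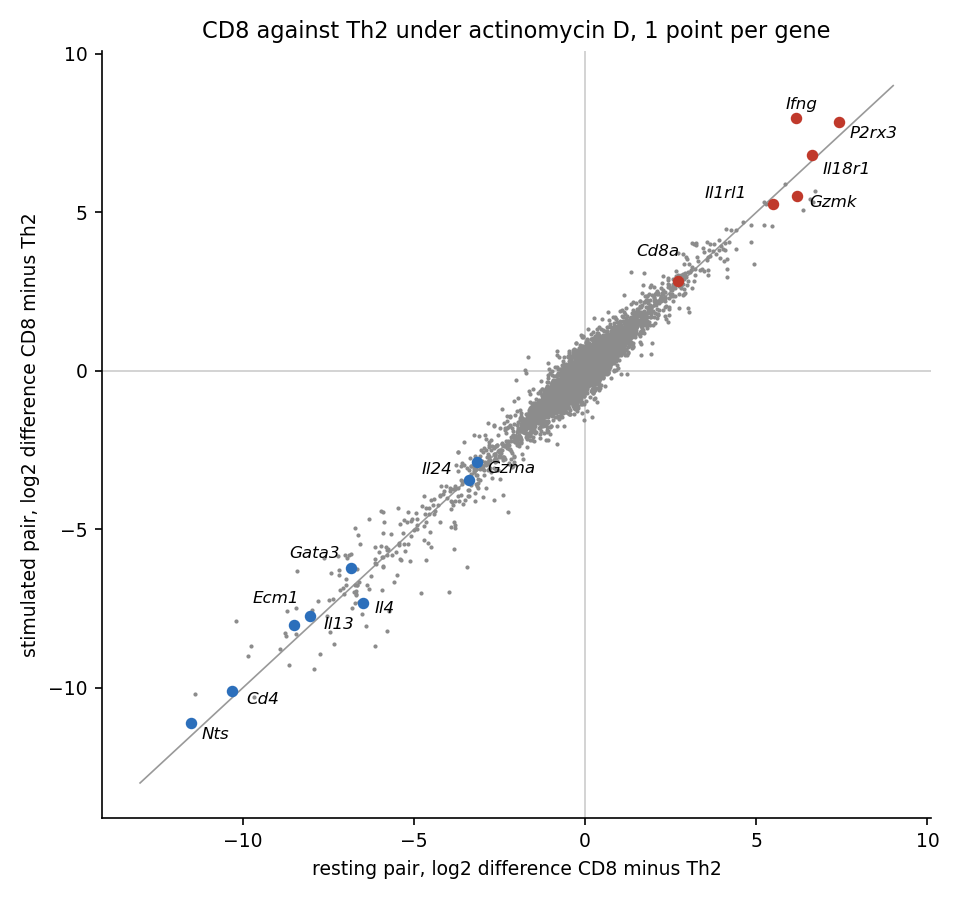
Log2 difference CD8 minus Th2 under actinomycin D of each tested gene in the resting pair (horizontal) and the stimulated pair (vertical), with equality as a grey line and named genes in colour. The 10875 genes lie along the line (Pearson r across genes 0.96, genes not being independent replicates), with Nts and Cd4 at the Th2 end and P2rx3, Ifng and Il18r1 at the CD8 end.

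Among the 12 genes with the largest differences toward CD8 cells, 4 belonged to the IL-18 and IL-33 receptors or to interferon gamma. Il18r1, the ligand-binding chain of the IL-18 receptor, had 23400 and 23750 normalised reads in CD8 cells, compared with 234.5 and 210.3 in Th2 cells (106-fold, log2 difference 6.72, SE 0.12, limma adjusted p = 3.99e-06). Il18rap, the accessory chain, had 5814 and 6364 in CD8 cells, compared with 201.4 and 261.7 in Th2 cells (26.4-fold, 4.72, SE 0.12, limma adjusted p = 1.1e-05). Il1rl1 encodes ST2, the receptor for IL-33 and a textbook marker of Th2 cells, yet it had 2325 and 3072 in CD8 cells, compared with 50.6 and 79.9 in Th2 cells (41.4-fold, 5.37, SE 0.16, limma adjusted p = 1.91e-05). Every CD8 library exceeded every Th2 library for these receptors. Il1rl1 was a member of the list of Th2 surface genes and did not follow the name of that list.

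These receptor genes stand side by side on chromosome 1 of mm10, all on the plus strand: Il1rl1 at 40429570 to 40465415, Il18r1 at 40465552 to 40500854 and Il18rap at 40515362 to 40551705. Their family neighbours upstream, looked up after these values were seen, did not all go the same way. Il1r2, a decoy receptor for IL-1 at 40074079 to 40125231, had 427.2 and 386.4 normalised reads in CD8 cells and 5295 and 5907 in Th2 cells (log2 difference -3.78, SE 0.13, limma adjusted p = 2.49e-05). Il1r1, the signalling receptor for IL-1, was at 4.92 and 1.99 in CD8 cells and 83.7 and 146.5 in Th2 cells. Il1rl2, a receptor of the same family, lay next to Il1rl1 with 317.9 and 329.8 in CD8 cells and 145.3 and 205.5 in Th2 cells (0.90, SE 0.26, limma adjusted p = 0.0411). The block thus held both CD8-high and Th2-high receptor genes, with the change of direction between Il1r1 and Il1rl2.

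The other leading CD8 genes were of mixed function. P2rx3, an ion channel gated by ATP and known from sensory neurons, had 9183 and 8859 normalised reads in CD8 cells, compared with 52.4 and 37.1 in Th2 cells (200-fold, log2 difference 7.64, SE 0.17, limma adjusted p = 7.54e-06). Klrk1, which encodes the activating receptor NKG2D, had 8197 and 9099 in CD8 cells, compared with 217.0 and 226.5 in Th2 cells (5.28, SE 0.13, limma adjusted p = 1.1e-05). Gzmk, granzyme K, had 817.0 and 834.4 in CD8 cells, compared with 10.1 and 17.1 in Th2 cells (5.86, SE 0.25, limma adjusted p = 6.27e-05). No Th2 value came near a CD8 value. Chl1 (a neural adhesion molecule), Serpinb5 (a serpin also called maspin) and Bst1 (the surface enzyme CD157) had log2 differences of 6.21, 6.01 and 5.87. Cxcr2 (a chemokine receptor) and Ly6c2 (a gene of the surface antigen Ly6C) completed the group with 4.43 and 4.30. Ly6c2 shared 14.4% of its 50-base words with Ly6c1, which differed the other way (5.91 and 5.96 in CD8 cells, 377.1 and 337.8 in Th2 cells), so the assignment of reads between the pair is uncertain.

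The 12 largest differences toward Th2 cells included Cd4, given above with the coreceptors, and 11 genes of mixed function. Nts, the precursor of the peptide neurotensin, had 3.94 and 5.96 normalised reads in CD8 cells, compared with 14670 and 14780 in Th2 cells (log2 difference -11.29, SE 0.19, limma adjusted p = 3.99e-06). Ecm1, a secreted matrix protein, had 258.9 and 264.2 in CD8 cells, compared with 94470 and 68300 in Th2 cells (-8.26, SE 0.14, limma adjusted p = 3.99e-06). Cyp11a1, which makes pregnenolone from cholesterol, had 35.4 and 41.7 in CD8 cells, compared with 15950 and 13080 in Th2 cells (-8.52, SE 0.26, limma adjusted p = 1.91e-05). CD8 and Th2 values lay far apart for each of them, and Ecm1 was still measurable in CD8 cells. Akr1c18, an enzyme that inactivates progesterone, had 15.8 and 9.93 in CD8 cells, compared with 13720 and 13590 in Th2 cells (-9.98, SE 0.20, limma adjusted p = 7.19e-06). Stra6, the receptor that takes up retinol, and Timd2, a surface protein of the TIM family, differed by -8.37 and -7.97 (limma adjusted p = 2.49e-05 and 6.97e-05).

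For 5 further genes of this group at least 1 CD8 library rested on 3 reads or fewer, and no fold is given except as a bound. Hgf, hepatocyte growth factor, had no read in either CD8 library and 404.6 and 619.5 normalised reads in Th2 cells, which at a floor of 3 reads per library puts CD8 cells at least 137-fold lower in the resting pair and at least 208-fold lower in the stimulated pair. Pth, parathyroid hormone, had 1.97 and 3.97 in CD8 cells and 2733 and 2571 in Th2 cells. Fgf2, a fibroblast growth factor, had 3.94 and 0.993 in CD8 cells and 1189 and 1343 in Th2 cells. The CD8 values of these hormones and growth factors are near the limit of counting. Adamtsl3, a matrix protein, had 1.97 and 5.96 in CD8 cells and 8131 and 7943 in Th2 cells, and Moxd1, a relative of dopamine beta-hydroxylase, had 0.984 and 8.94 in CD8 cells and 2355 and 2377 in Th2 cells. All 5 were called.

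Of 20 tested type 1 cytokines, chemokines and receptors (of 22), 12 were higher in CD8 cells and 7 lower. Of all genes 28.4% and 27.5% were, so that the lower count is near that of all genes. The 8-library model called 10 higher and 4 lower, beside 15.9% and 16.5% of all genes. The median was 0.95, and Ifng had the largest difference. It had 3445 normalised reads in resting and 31210 in stimulated CD8 cells, compared with 46.9 and 123.7 in Th2 cells (134-fold, log2 difference 7.07, SE 0.47, limma adjusted p = 0.00027). The lowest CD8 library exceeded the highest Th2 library, and stimulated CD8 cells held the most. Ifng shared 19.9% of its 50-base words with Gm49751, an overlapping gene model, so its count is uncertain. Lta, lymphotoxin alpha, had 6119 and 9785 in CD8 cells, compared with 1207 and 1994 in Th2 cells (2.32, SE 0.66, limma adjusted p = 0.0413). The inflammatory chemokines Ccl3 and Ccl4 did not pass in the 8-library model (-0.86 and -0.90, limma adjusted p = 0.371 and 0.295), and their CD8 and Th2 values overlapped: Ccl3 was at 59.1 and 319.9 in CD8 cells and 201.4 and 313.1 in Th2 cells. Tnf, at 669.3 and 1233 in CD8 cells and 285.1 and 1310 in Th2 cells, overlapped as well (0.57, SE 0.30, limma adjusted p = 0.187).

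All 9 tested members of the type 2 cytokine list (of 15) were lower in CD8 cells, with a median of -3.42, in the 4-library fit and in the 8-library model. Of all genes, 27.5% were called lower in the 4-library fit and 16.5% in the 8-library model. Members low in CD8 cells, such as Il4 and Il5, passed the minimum level through Th2 cells, which favours this direction. Il13 had 6.89 and 39.7 normalised reads in CD8 cells, compared with 2066 and 8679 in Th2 cells (log2 difference -7.88, SE 0.17, limma adjusted p = 7.54e-06). Il4, which drives the Th2 fate itself, had 10.8 and 18.9 in CD8 cells, compared with 1065 and 3195 in Th2 cells (-6.91, SE 0.25, limma adjusted p = 3.23e-05). Il5, the growth factor of eosinophils, had 10.8 and 11.9 in CD8 cells, compared with 1157 and 2017 in Th2 cells (-6.95, SE 1.11, limma adjusted p = 0.00645). No CD8 library reached the lowest Th2 library for any of them. Il5 missed the threshold when any 1 of the 4 libraries was left out (-7.29 to -6.61, limma adjusted p = 0.129 to 0.162). Il21, a helper cytokine that acts on B cells, and Cd40lg, the ligand that licenses B and dendritic cells, differed by -7.03 and -3.05, and Il10, the regulatory cytokine, by -2.54, with 415.4 and 4187 in CD8 cells and 2727 and 21700 in Th2 cells. Il10 shows overlap across states, as its stimulated CD8 value exceeded its resting Th2 value, while within each state Th2 was higher. Csf2 (granulocyte-macrophage growth factor), Tnfsf11 (the ligand RANKL) and Il24 were the remaining tested members. The other 6 members, Il2, Il3, Il6, Il9, Il31 and Areg, had means under 50 with the drug.

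The transcripts of both lineages were also looked up among stretches of RNA held by protein. GCLiPP, a cross-linking method that recovers RNA fragments held by any protein, gave 27729 deposited peaks of 70 bases, pooled over 10 libraries of both lineages, so the peaks do not tell which lineage they came from. Of the 26458 peaks that lay within 1 exon, 93.4% were in 3′ untranslated regions. The pentamer ATTTA, searched on the transcript strand only, was in 7.9% of all peaks, in 16 of 50 peaks of the type 2 cytokine list (32.0%), in 18 of 97 of the type 1 cytokine list (18.6%) and in 4 of 155 of the Th2 surface list (2.58%). Killer receptor genes had it in 0 of 17 peaks. The shares are descriptions and are based on few genes (7 of 10 type 2 cytokine genes with a peak). Il18r1 (10 peaks), Il18rap (1), Il1rl1 (1), P2rx3 (2), Klrk1 (3), Il4 (1) and Maf (23) had it in no peak. Ifng had it in 4 of 10 peaks, Lta in 2 of 7, Tbx21 in 1 of 9 and Il13 in 1 of 10. Il5 had it in 3 of 10, Il24 in 3 of 6, Ccr4 in 1 of 8 and Cd4 in 2 of 19. The windows printed here are shown only for genes with the motif in a peak. Each is 30 bases around the motif in the highest-scoring peak of that gene that holds it. The windows are written 5′ to 3′ on the transcript strand with T for U, and capitals mark ATTTA. They come from GENCODE vM21 transcripts on GRCm38 (mm10).
Ifng (chr10:118445827-118445856, plus strand): aataactcgctcATTTAtagtttatcactg
Lta (chr17:35203419-35203448, minus strand): ggaaggttgactATTTAtggagagaaaagt
Tbx21 (chr11:97098132-97098161, minus strand): aggggggaggctATTTAttgtagagagtgg
Il13 (chr11:53631742-53631771, minus strand): ttcttcttgatcttATTTAttatggttgtg
Il5 (chr11:53724112-53724141, plus strand): tatgctgtttccATTTAtATTTAtgtcctg
Il24 (chr1:130882133-130882162, minus strand): ATTTAgtgccccatgcctcctcctcacttc
Ccr4 (chr9:114490709-114490738, minus strand): aggctATTTAgtgagactttgtcttgaaaa
Cd4 (chr6:124866025-124866054, minus strand): aagcacaccccatcagcttATTTAttcttc
The window of Il5 holds the pentamer at 2 places and the others at 1. Cd8a with 11 peaks, Gzmb with 10 and Runx3 with 13 had no ATTTA in a peak, which says only that these letters were not in those windows.

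Transcripts that encode cytotoxic granules were split between the lineages. Of 23 tested members (of 25), 12 were higher in CD8 cells and 8 lower, beside 28.4% and 27.5% of all genes, with a median difference of 0.29 against 0.012 for all genes. Gzmb, granzyme B, had 413500 and 419100 normalised reads in CD8 cells and 149200 and 137500 in Th2 cells (log2 difference 1.54, SE 0.14, limma adjusted p = 0.00082). Prf1, perforin, had 3750 and 3797 in CD8 cells and 1862 and 1498 in Th2 cells (1.18, SE 0.30, limma adjusted p = 0.0284). Gzma went the other way, with 3416 and 3908 in CD8 cells and 30400 and 28420 in Th2 cells (-3.01, SE 0.20, limma adjusted p = 0.000253). CD8 and Th2 values did not overlap for any of these granule genes, and Th2 cells too carried abundant Gzmb RNA. Prf1 missed the threshold without any 1 library (limma adjusted p = 0.212 to 0.322), and Gzmb did so without the stimulated CD8 or the stimulated Th2 library (1.47, limma adjusted p = 0.0566 and 0.0577).

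The other granule genes were divided as well. Nkg7, a granule membrane protein needed for killing, had 25650 and 25200 normalised reads in CD8 cells and 4360 and 3401 in Th2 cells (log2 difference 2.72, SE 0.12, limma adjusted p = 6.27e-05). Ctsw, a cathepsin of killer cells, and Fasl, the ligand of the death receptor Fas, were higher in CD8 cells by 2.63 and 2.64. Srgn, the proteoglycan on which granule contents are packed, was lower, at 21430 and 20410 in CD8 cells, compared with 76880 and 71850 in Th2 cells (-1.83, SE 0.10, limma adjusted p = 0.000123). Gzmd, Gzme and Gzmg were also lower in CD8 cells (-3.85, -3.07 and -4.38), but 21.9%, 20.6% and 19.8% of their 50-base words occurred in other transcripts, so reads may have been split among these near copies.

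Of 21 tested killer lectin-like and NK-type receptors (of 25), 14 were higher in CD8 cells and 4 lower (28.4% and 27.5% of all genes), with a median of 1.80. The 8-library model called 13 higher and 2 lower (15.9% and 16.5% of all genes). Klrd1, which encodes CD94, the partner of the NKG2 receptors, had 4481 and 5204 normalised reads in CD8 cells, compared with 324.6 and 323.5 in Th2 cells (log2 difference 3.89, SE 0.14, limma adjusted p = 2.95e-05). Klra3, a receptor of the Ly49 family, differed by 4.13, with 20.7% of its words shared with other transcripts. The exceptions were Ly6c1 (-5.69) and Itgae, the CD103 chain that binds E-cadherin (-3.14). Itgae had 30.5 and 23.8 in CD8 cells and 287.8 and 210.3 in Th2 cells, without overlap. Defining markers of NK cells and innate lymphoid cells were low in both lineages, with 1 of 6 tested and a summed level of 111.2 and 120.2 in CD8 cells and 90.1 and 92.3 in Th2 cells.

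Among the 13 CD8 coreceptor and lineage genes, all tested, 9 were higher in CD8 cells and 3 lower (median 1.26). Of all genes 28.4% and 27.5% were, the lower count being near that share. The 8-library model called 8 higher and 3 lower, beside 15.9% and 16.5% of all genes. Hopx, a small homeodomain cofactor, had 5498 and 6081 normalised reads in CD8 cells and 648.4 and 676.6 in Th2 cells (log2 difference 3.12, SE 0.11, limma adjusted p = 2.72e-05). Zfp683, which encodes Hobit, a factor of tissue-resident T cells, differed by 2.54 and Prdm1, Blimp-1, by 1.04. Id2 and Zeb2, factors of effector CD8 cells, were lower in CD8 cells. Id2 had 726.4 and 1567 in CD8 cells, compared with 1672 and 4353 in Th2 cells (-1.34, SE 0.21, limma adjusted p = 0.00564). Zeb2 had 283.5 and 328.8 in CD8 cells, compared with 658.5 and 884.0 in Th2 cells (-1.32, SE 0.16, limma adjusted p = 0.00237). Within each state Th2 cells held more of both, although resting Th2 and stimulated CD8 values of Id2 lay close together.

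The list of CD4 and helper factors had 15 of 20 tested members lower in CD8 cells and 5 higher (median -1.14). Of all genes 27.5% and 28.4% were, the higher count being near that share. The 8-library model called 14 lower and 2 higher, beside 16.5% and 15.9% of all genes. Maf, which activates Il4, had 105.3 and 112.3 normalised reads in CD8 cells and 6301 and 8166 in Th2 cells (log2 difference -6.03, SE 0.30, limma adjusted p = 9.58e-05). Batf, an AP-1 factor, Tcf7, which encodes TCF-1, and Pparg, a nuclear receptor used by Th2 cells, were also lower in CD8 cells (-2.25, -2.36 and -2.04). Against the name of the list, Ikzf2, which encodes Helios, had 1837 and 1757 in CD8 cells and 212.4 and 285.5 in Th2 cells (2.86, SE 0.27, limma adjusted p = 0.000905). Rora, a nuclear receptor, was also higher in CD8 cells (1.42). Foxp3, the factor of regulatory T cells, differed by -2.95, with 14.7% of its words shared with another transcript.

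Of 28 tested genes of the Th2 surface and signature list (of 33), 21 were lower in CD8 cells and 6 higher (median -2.80). Of all genes 27.5% and 28.4% were. The 8-library model called 20 lower and 5 higher, beside 16.5% and 15.9% of all genes. Epas1, a hypoxia-inducible factor, had 329.7 and 309.9 normalised reads in CD8 cells and 22620 and 21040 in Th2 cells (log2 difference -6.09, SE 0.36, limma adjusted p = 0.000185). Ccr8, a chemokine receptor of Th2 cells, had 5.91 and 9.93 in CD8 cells and 698.9 and 829.8 in Th2 cells (-6.46, SE 0.35, limma adjusted p = 0.000127). Penk, the precursor of enkephalin peptides, differed by -6.57 and Rnf128, the ubiquitin ligase GRAIL, by -5.90. The 6 members higher in CD8 cells included Il1rl1, Furin, Hsd11b1 and Gpr183. Furin, a protease that activates TGF-beta, had 8126 and 8498 in CD8 cells and 1036 and 734.6 in Th2 cells (3.25, SE 0.41, limma adjusted p = 0.00266). Hsd11b1, which regenerates active glucocorticoid, had 761.8 and 830.5 in CD8 cells and 138.9 and 126.6 in Th2 cells (2.58, SE 0.17, limma adjusted p = 0.00028). Tnfrsf9, the costimulatory receptor 4-1BB, was not called (0.03; 17140 and 17930 in CD8 cells, 17780 and 16700 in Th2 cells).

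**Figure D3:**
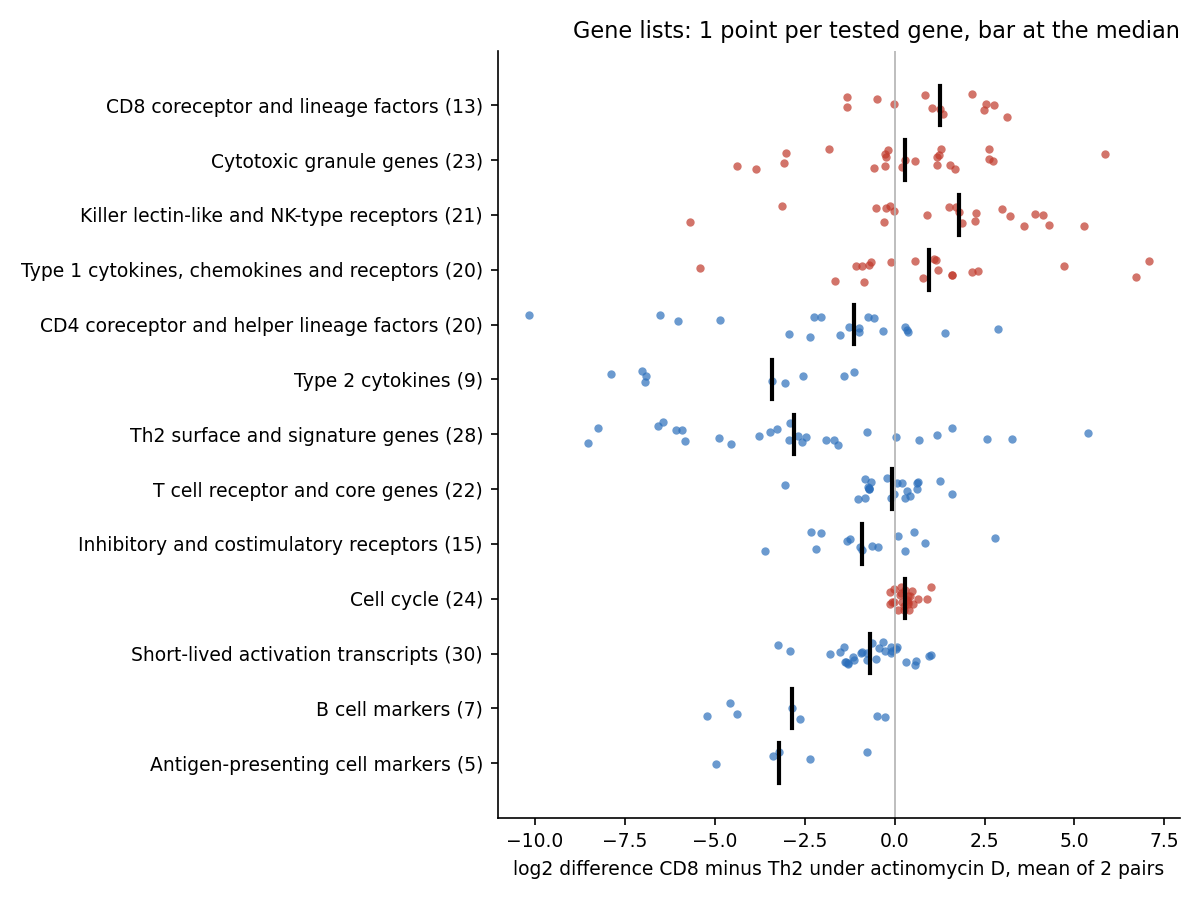
Log2 difference CD8 minus Th2 under actinomycin D (horizontal, mean of 2 pairs) of every tested gene in 13 lists, 1 point per gene, red for lists with a median above 0 and blue below, with a black bar at the median and the number tested in parentheses. The bars run from 1.80 for the killer receptors to -3.42 for the type 2 cytokines, and single genes cross the line in most lists.

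Genes shared by all T cells were centred near 0. Of 22 core and T cell receptor genes, 8 were higher and 9 lower, not far from the 28.4% and 27.5% of all genes, with a median of -0.06, running from -3.04 for Trat1, an adaptor of the T cell receptor, to 1.59 for Cd96, a receptor for nectins. Cd3e, a chain of the CD3 complex, had 7500 and 6850 normalised reads in CD8 cells and 7028 and 6733 in Th2 cells (log2 difference 0.06, SE 0.10, limma adjusted p = 0.659). Among 15 tested inhibitory and costimulatory receptors, 4 were higher and 10 lower, beside 28.4% and 27.5% of all genes (median -0.91). Lag3, an inhibitory receptor for MHC class II, had 7241 and 6195 in CD8 cells and 15190 and 10380 in Th2 cells (-0.91, SE 0.12, limma adjusted p = 0.00322). Of 15 tested homing and quiescence genes, 6 were higher and 3 lower. Cell cycle genes had 14 of 24 higher and 0 lower in the 4-library fit, with 5 higher in the 8-library model, and the proliferation marker Mki67 was not called (-0.01). Interferon response genes had 9 of 19 higher and 7 lower. The counts of the homing and interferon lists, too, are to be read beside the 28.4% higher and 27.5% lower of all genes, and that of the cell cycle list in the 8-library model (5 of 24) beside 15.9%.

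Of transcripts known to turn over fast after activation, 18 of 30 tested were lower in CD8 cells and 5 higher, beside 27.5% and 28.4% of all genes (14 and 3 in the 8-library model, beside 16.5% and 15.9%), with a median of -0.69 on the log2 scale. Egr2, an early growth response factor, had 42.3 and 384.4 normalised reads in CD8 cells and 506.7 and 1821 in Th2 cells (log2 difference -2.90, SE 0.56, limma adjusted p = 0.0124). Nfkbia, the inhibitor of NF-kappa B, had 53.2 and 112.3 in CD8 cells and 150.8 and 242.7 in Th2 cells (-1.30, SE 0.15, limma adjusted p = 0.00196). Myc went the other way, with 1262 and 1313 in CD8 cells and 665.8 and 610.0 in Th2 cells (1.01, SE 0.11, limma adjusted p = 0.00158). Within each state the order was the same in both pairs for these 3 genes. In the untreated libraries the difference of Myc was -0.03 and that of Nfkbia -0.43, and for neither did the change with the drug pass the test of that change (limma adjusted p = 0.214 and 0.229).

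Markers of other cell types were not even between the lineages. Of 7 tested B cell markers (of 10), 6 were lower in CD8 cells, beside 27.5% of all genes. The summed level of the list was 8370 and 8104 normalised reads in CD8 cells, compared with 17450 and 15850 in Th2 cells. Igkc, the kappa light chain, had 106.3 and 129.1 in CD8 cells and 4276 and 4533 in Th2 cells. Pax5, the B cell factor, was at 0 in both CD8 libraries and at 17.5 and 9.52 in Th2 cells. All 5 tested markers of antigen-presenting cells (of 7) were lower in CD8 cells, with sums of 1585 and 1329 against 6792 and 5291 in Th2 cells. These moved with the Th2-high genes, and their part in those results was not tested. Of 7 markers of gamma-delta and regulatory T cells, 5 were tested. Of these, 4 were higher in CD8 cells (Ikzf2, Tcrg-C1, Tcrg-C2 and Tcrg-C4), beside 28.4% of all genes. Foxp3, the factor of regulatory T cells, was lower, so the count does not show that regulatory T cell markers were higher. Tcrg-C1 and Tcrg-C2 shared 34.2% and 25.4% of their words with other transcripts, so their counts are uncertain. The list summed to 3234 and 3395 in CD8 cells and 626.3 and 745.1 in Th2 cells. Ikzf2, given above with the helper factors, held more of the CD8 sums than all other members together. Trdc and Sox13 were the members not tested, so the sums do not show an excess of gamma-delta markers as a group. The part of these markers in the CD8-high results was not tested either. Myeloid markers summed to 277.6 and 459.9 in CD8 cells and 484.7 and 320.7 in Th2 cells, and erythroid markers to at most 9.84 in CD8 cells and 9.20 in Th2 cells. Of 8 stromal and endothelial markers, 2 were tested and both were lower in CD8 cells, with sums of 753.0 and 841.4 in CD8 cells and 1727 and 2135 in Th2 cells. The counts of antigen-presenting and stromal markers, too, are to be read beside the 27.5% of all genes that were lower. These lists are small, and a marker can pass the minimum level through Th2 cells alone.

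Most lineage differences of untreated cells were still there with the drug. Of the 10944 genes tested in the untreated libraries, 380 (3.47%) were called and at least 2-fold higher in CD8 cells and 607 (5.55%) called and at least 2-fold lower. With actinomycin D, 354 of the 380 (93.2%) and 543 of the 607 (89.5%) were called in the same direction, and 292 and 466 of them were still at least 2-fold (76.8% of each set). A further 15 of the 380 and 51 of the 607 fell under the minimum level, and 2 and 0 were called in the opposite direction. For comparison, the drug fit called 28.4% of all tested genes higher in CD8 cells and 27.5% lower. With at least 2-fold required, these shares were 5.45% and 7.71%. The median difference of the genes tested under both conditions was 1.68 with the drug and 1.82 without it for the CD8-high set, and -1.90 with the drug and -2.21 without it for the Th2-high set. For 328 CD8-high and 498 Th2-high genes, the difference with the drug lay between 0.5 and 1.5 times that without. It was under 0.5 times for 28 and 52 genes and over 1.5 times for 9 and 6.

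**Figure D4:**
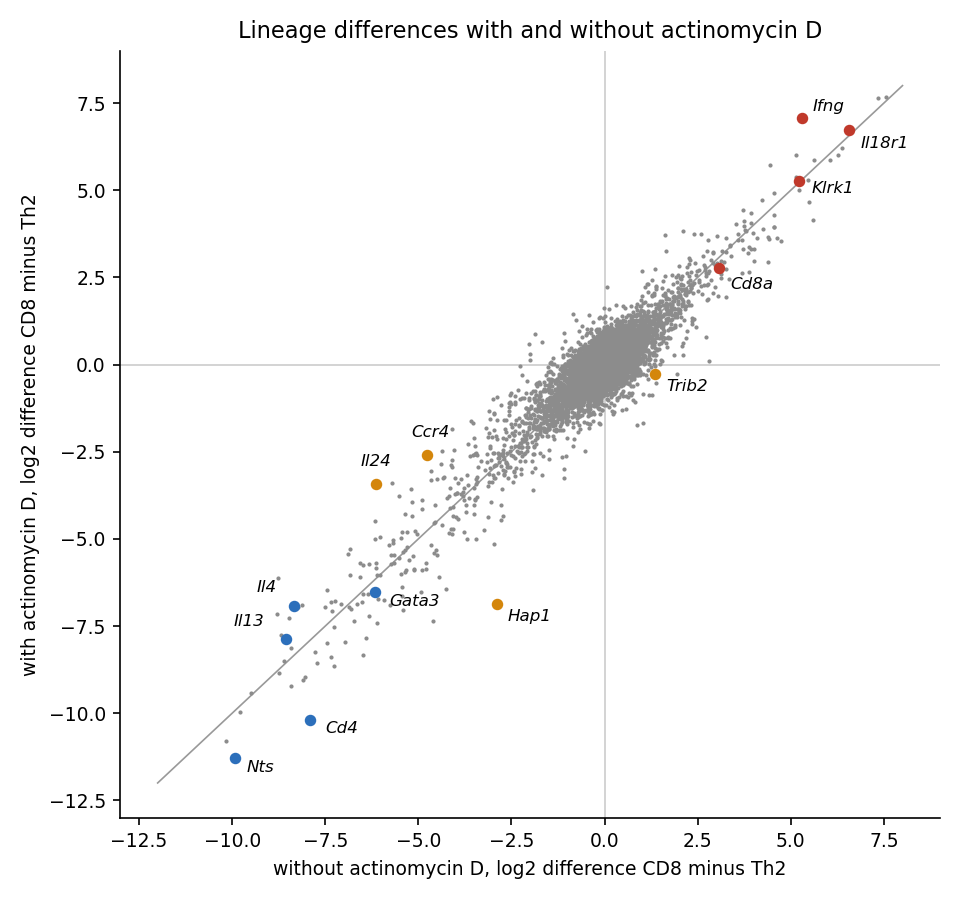
Log2 difference CD8 minus Th2 of each gene in untreated cells (horizontal) and in cells given actinomycin D (vertical), with equality as a grey line, CD8-high genes named in red, Th2-high genes in blue, and 4 genes off the line in orange, of which Il24 alone passed the test of the change. The 10518 genes tested under both conditions follow the line (Pearson r across genes 0.906, genes not being independent), and Il24 (-6.14 without, -3.42 with the drug) and Ccr4 lie above it.

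Of the 16 defining genes, Zbtb7b, Eomes, Prf1 and Tbx21 were not called without the drug, with log2 differences of -0.48, 0.58, 1.31 and 2.02 (limma adjusted p = 0.275, 0.2, 0.0905 and 0.0771), so persistence cannot be read for them. The Cd8a difference was 2.77 with the drug and 3.08 without it (limma adjusted p without the drug 0.00305), and that of Gata3 was -6.53 with the drug and -6.17 without it (limma adjusted p without the drug 0.00978). Il13 was at -7.88 with the drug and -8.56 without it, although its level in stimulated Th2 cells was 8679 normalised reads with the drug and 48060 without it. Il4 in stimulated Th2 cells was at 3195 with the drug and 16080 without it, and its difference was -6.91 with the drug and -8.35 without it. Levels of the cytokine RNAs thus differed several-fold between treated and untreated stimulated Th2 cells while the gap to CD8 cells kept its direction. Tbx21 had 436.0 and 706.3 in CD8 cells with the drug and 3351 and 5985 without it. The transcripts of the list members Areg and Bhlhe41 were among those that fell under the minimum. Areg, an epidermal growth factor family member, was at 11.96 and 152.3 in Th2 cells with the drug and at 31.9 and 2641 without it, and Bhlhe41, a repressor used by Th2 cells, at 56.1 and 62.8 with the drug and 337.1 and 841.5 without it.

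Whether the lineage difference itself changed with the drug was tested in 1 model of all 8 libraries, over 10972 genes. Only Il24, a cytokine of the IL-10 family (chromosome 1, 130882074 to 130887454, minus strand), passed (1 gene, 0.00911% of those tested), and 1790 had an unadjusted p under 0.05. edgeR on recovered reads also called 1 gene, Il24 (adjusted p = 0.00747) and put 1990 below an unadjusted p of 0.05. DESeq2 called 169. With the drug Il24 had 328.8 and 1897 normalised reads in CD8 cells and 3459 and 20690 in Th2 cells (log2 difference -3.42, SE 0.10, limma adjusted p = 1.91e-05). Without the drug it had 136.9 and 1164 in CD8 cells and 9312 and 85920 in Th2 cells (-6.14, limma adjusted p = 0.00105). The Th2 values were thus lower and the CD8 values higher with the drug, in both states, and Th2 cells held more within each state throughout. The change of the difference was 2.72 ± 0.15 (SE, limma adjusted p = 0.0151). It kept its size but not its call when 1 of the 4 libraries given the drug was left out (2.70 to 2.75, limma adjusted p = 0.678 to 0.934), without a variance trend (limma adjusted p = 0.224) and without the pairing by state (limma adjusted p = 0.999).

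Ccr4, a chemokine receptor of Th2 cells (chromosome 9, 114490316 to 114496544, minus strand), had the next smallest p. It had 555.1 and 695.4 normalised reads in CD8 cells and 3163 and 4426 in Th2 cells with the drug (log2 difference -2.59), and 617.9 and 239.4 in CD8 cells and 15260 and 7359 in Th2 cells without it (-4.78). The change of 2.19 ± 0.18 (SE) did not pass (limma adjusted p = 0.092), and it passed after quantile normalisation (limma adjusted p = 0.0316) and in DESeq2. Without any 1 of the 4 untreated libraries it was 2.04 to 2.35. Those models have 1 residual degree of freedom, so their calls add no evidence. Trib2, a pseudokinase, and Gm8995, a pseudogene, were the 2 genes called at least 2-fold higher in untreated CD8 cells and called lower in CD8 cells with the drug. Trib2 had 1014 and 1183 in CD8 cells and 1328 and 1313 in Th2 cells with the drug, against 3639 and 5076 in CD8 cells and 1318 and 2132 in Th2 cells without it. The difference with the drug was small (-0.27, SE 0.12, limma adjusted p = 0.141 in the 8-library model), and the change did not pass (limma adjusted p = 0.214). Gm8995 had 14010 and 14040 in CD8 cells and 23080 and 28710 in Th2 cells with the drug (-0.88, SE 0.17, limma adjusted p = 0.0128), and 35610 and 24810 in CD8 cells and 19630 and 8646 in Th2 cells without it (1.19, limma adjusted p = 0.036), and its change did not pass either (limma adjusted p = 0.214).

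**Figure D5:**
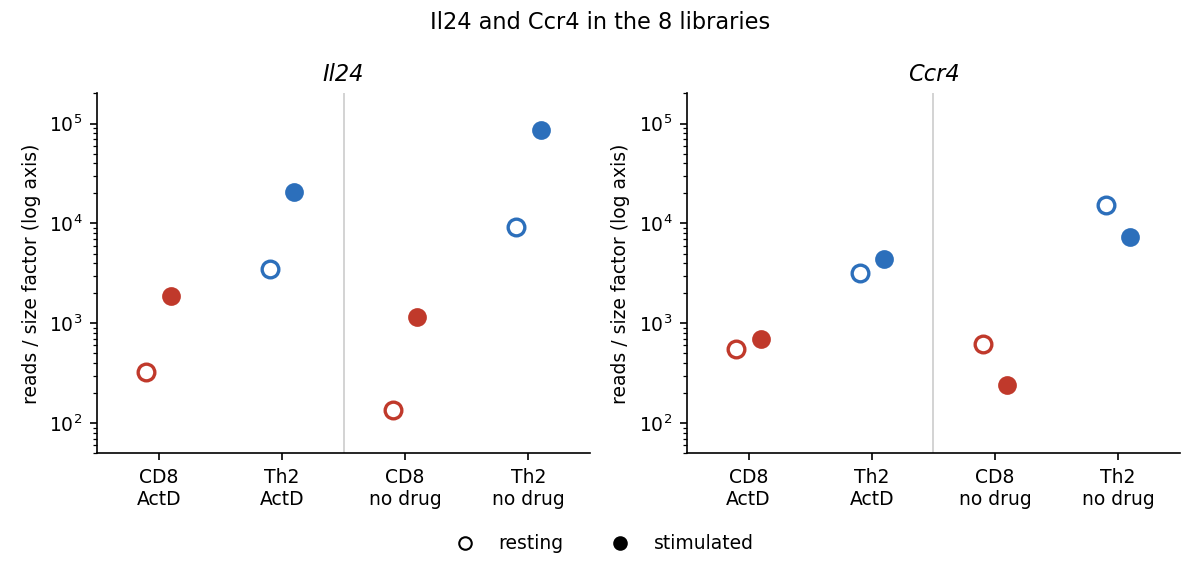
Normalised reads (log axis) of Il24 and Ccr4 in the 8 RNA-seq libraries, with open circles for resting and filled circles for stimulated cells, actinomycin D left and no drug right, and CD8 left of Th2 in each. The gap between CD8 and Th2 points of Il24 is narrower with the drug (log2 difference -3.42) than without it (-6.14), and the same holds for the means of Ccr4 (-2.59 and -4.78).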

How the data were processed

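Per the labels, RNA was selected on oligo-dT beads and sequenced with a stranded total RNA kit (the lysis used for the libraries given the drug is uncertain), and per the labels and methods reads were aligned with STAR to mm10. Counter, annotation and strand use: not given in the sources used here. Overlapping and antisense genes are therefore uncertain. The authors deposited a normalised signal per gene: the methods describe FPKM, but in every library 100% of values were whole multiples of 1 step within 0.01 read, for all gene lengths, so they are gene reads divided by a size factor (24154849 to 31042504 reads in the 8 libraries). Another table repeats these values beside the authors' own fold changes and was not used. The deposited GCLiPP peak score is a whole number whose meaning is not stated. It was used only to rank peaks.

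limma 3.58.1 (R 4.3.3) was run on log2(value + 1) with a mean-variance trend and state as the block that pairs the libraries, which follows from the design, since the labels give every library the same replicate number. Genes needed a mean of at least 50. The 4-library fit had infinite prior degrees of freedom, the untreated fit 3.23 and the 8-library model 4.14. edgeR 4.0.16 and DESeq2 1.42.0 were run on the recovered reads as alternatives, the stimulated CD8 library with the drug having a step of 0.993. Only the 4-library fit was tested on simulated data, which had the same relative spread for every gene and no difference between states. Alternatives were pseudocounts, minimum levels, scalings, no variance trend, no block and each library left out. Named genes were the 12 largest called differences in each direction with a mean of at least 250, leaving out predicted models and receptor segments, the called members and defining genes of 21 lists, and called interaction genes. Members, lists and tests were chosen with earlier results of these data known. Peaks were placed on GENCODE vM21 transcripts (26458 of 27729 within 1 exon, 95.4%). Leading genes and list members with printed values are named as uncertain where over 10% of their 50-base words are shared with others. Further list members over 10% are counted in their lists without that mark. Among them are Klrc1 (38.6%), Klrc2 (16.3%), Stat4 (21.7%), Mcm7 (18.1%) and Pcna (19.1%). Values of some list members are not reported here.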

Additional observations from a re-analysis of the deposited data

Results flagged for a closer look

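Il24 was picked out because its difference between CD8 and Th2 cells was not the same with and without actinomycin D: the change was 2.72 on the log2 scale, by the interaction term of the model of all 8 libraries. Both pairs moved the same way, with log2 differences of -3.39 (resting) and -3.45 (stimulated) with the drug and -6.08 and -6.20 without it. The duration of the drug treatment is not given in the sources used here, and each of the 8 values comes from 1 library.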

How the results depend on the processing

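The count of genes called between CD8 and Th2 cells with actinomycin D was 6081 of 10875 tested. Under other pseudocounts, minimum levels and scalings and without a variance trend, the count stayed within 1.5 times. With no minimum it was 5830 of 21869. It stayed in that range with edgeR (7203 of 13508), DESeq2 (4391 of 15085) and edgeR on all 8 libraries (4167 of 13204, chosen after seeing the data). The count hides differences in the share called, because the number of genes tested differed. It was 3520 in the model of 8 libraries, 2801 without the replicate block (state left out) and 336 to 409 with each library left out. These models differ in residual degrees of freedom by construction (1 in the models of 7 libraries). Without the drug the count was 1224, and it was 705 at a minimum of 250, 4400 with no minimum, 123 without the replicate block and 3160 in the model of 8 libraries. For the change with the drug (1 gene) it was 2 after quantile normalisation, 0 without a variance trend, 0 without the replicate block, 169 with DESeq2 (chosen after seeing the data) and 0 to 2974 with each library left out, 0 without any library given the drug and 985 to 2974 without an untreated one. The cause was not tested. Of lineage differences of at least 2-fold, 897 persisted, against 458 of at least 4-fold, 1107 with no fold minimum and 869 with the drug fit of 8 libraries (chosen after seeing the data). Of 723 combinations of a setting with 40 named results (38 genes with the drug and the changes of Il24 and Ccr4), 683 kept direction and call, 34 lost the call, 6 gained it (all for the change of Ccr4) and 0 reversed. The lack of reversals was nearly fixed in advance. Most settings barely alter a difference, and leaving out 1 library leaves the difference of the other pair. Il24 with the drug missed the threshold without the replicate block (adjusted p = 0.0636). With 1 library per condition, no difference here has been repeated in a second culture.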

Other observations

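Some genes outside the lineage lists had differences that were not alike with and without the drug. They were picked after their values were seen, and the change did not pass for any of them (limma adjusted p = 0.214 each). Btg2, an antiproliferative gene listed under quiescence, had 502.0 and 559.3 normalised reads in CD8 cells and 1421 and 2024 in Th2 cells with the drug, and 2990 and 7554 in CD8 cells and 2342 and 2282 in Th2 cells without it. Fosb, an AP-1 subunit, had 138.8 and 240.4 in CD8 cells and 473.6 and 866.9 in Th2 cells with the drug, and 27.0 and 85.3 in CD8 cells and 22.6 and 55.5 in Th2 cells without it. Hap1, a partner of huntingtin, had 6.89 and 3.97 in CD8 cells and 808.4 and 658.5 in Th2 cells with the drug, and 36.3 and 34.4 in CD8 cells and 406.4 and 178.9 in Th2 cells without it. Fosb was thus higher with the drug in all 4 matched conditions, Btg2 was lower in all 4, and Hap1 was lower in CD8 cells and higher in Th2 cells.

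In the other direction, of the 593 genes at least 2-fold higher in CD8 cells with the drug, 518 had the same direction without it. Of these, 308 were also called without it. A further 15 of the 593 had the opposite direction with no call, and 60 were under the minimum. Of the 839 at least 2-fold lower, 762 had the same direction (487 of them called without the drug), 15 the opposite one with no call and 62 were under the minimum. Over all genes, the untreated fit called 503 of 10944 higher in CD8 cells and 721 lower. The drug fit called 3085 and 2996 of 10875. Prior degrees of freedom also differed (3.23 without the drug, infinite with it). A missing call without the drug therefore does not show a missing difference.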
